A study of Mus musculus with 6 samples.

Results

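The genes of glucose uptake, glycolysis, lactate handling, the pentose phosphate pathway, pyruvate entry into mitochondria and the tricarboxylic acid (TCA) cycle were examined in Treg with and without HDAC10. The list holds 41 genes. Of these, 36 had a probe set, the group of short oligonucleotides that reads 1 transcript on the array, annotated to that gene symbol alone, as did 22180 genes in all. Where a gene had several such probe sets, the brightest by its average over the arrays was read. Gpi1, Eno1 and G6pdx had no probe set under their symbol in the annotation used here. Aldoa and Tkt had only probe sets that carry several symbols, so that these 5 genes were not analysed here. The samples were CD4+CD25+ Treg from spleen and peripheral lymph nodes of female mice aged 8 to 12 weeks, isolated with magnetic beads. HDAC10-/- Treg and WT Treg, both labelled C57BL/6, had 3 independent samples and so 3 arrays each. The knockout mice carry the deletion in all cells and not in Treg alone, and the source of these mice names a C57BL/6N background (B6N), whereas the substrain of the WT mice is not given in the sources used here.

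Glycolysis breaks glucose down to pyruvate in the cytosol. Pyruvate is then either reduced to lactate, which leaves the cell through monocarboxylate transporters, or enters mitochondria, where pyruvate dehydrogenase makes the acetyl-CoA that feeds the TCA cycle. The pentose phosphate pathway branches off after the first step of glycolysis and supplies NADPH and ribose. Several steps can be carried out by more than 1 gene product, such as hexokinase, phosphofructokinase and lactate dehydrogenase. Resting Treg are known to rely on mitochondrial oxidation more than activated effector T cells do, which take up much glucose and release lactate. An array reads messenger RNA and not flux.

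Hdac10 itself had log2 signals of 6.11, 6.22 and 6.22 in HDAC10-/- Treg and 9.03, 9.30 and 8.95 in WT Treg, so that each array had the level of its label. The Treg and T cell markers were measured for 10 of 10 genes and none passed the test, with a median difference of −0.06 on the log2 scale. Of the 10, 7 had a lower mean in HDAC10-/- Treg and 3 a higher one, among them Foxp3 (0.03) and Il2ra (0.08). In 4 every HDAC10-/- array lay below every WT array (40%), against 10.9% of all probe sets and 17.7% of genes with a signal above the median. Cd3d (−0.22), Cd4 and Tnfrsf18 (−0.14 each) were lower at an unadjusted p under 0.05 in limma, as were 6.95% of all probe sets. Markers of other cells did differ. In HDAC10-/- Treg, 7 of 10 macrophage and monocyte, 5 of 8 neutrophil and 3 of 5 measured B cell markers rose. So did 3 of 5 dendritic cell and 3 of 5 CD8 T and NK cell markers and 2 of 4 measured proliferation genes, and none fell. Over all probe sets, 1.25% rose and 0.757% fell. The CD8 T and NK cell markers were mixed. Cd8a, Ncr1 and Tyrobp rose, while Klrb1c (−0.23) and Cd8b1 (−0.05) had a lower mean, with overlap. The mean log2 signal over the macrophage and monocyte markers was 6.97 to 7.23 in HDAC10-/- arrays and 6.38 to 6.44 in WT arrays. Over the neutrophil markers it was 6.10 to 6.48 in HDAC10-/- and 5.33 to 5.47 in WT arrays, and over the B cell markers 8.16 to 8.48 in HDAC10-/- and 7.50 to 7.70 in WT arrays. It was 7.03 to 7.15 in HDAC10-/- and 6.53 to 6.65 in WT arrays over the dendritic cell markers and 8.24 to 8.32 in HDAC10-/- and 7.90 to 8.04 in WT arrays over the CD8 T and NK cell markers. Over the proliferation genes it was 10.03 to 10.08 in HDAC10-/- and 9.62 to 9.74 in WT arrays. Over the Treg and T cell markers it was 11.94 to 11.97 in HDAC10-/- and 11.99 to 12.03 in WT arrays. The part of these cells in the results below was not tested. In such bulk samples, fewer cells of a type and less RNA per cell cannot be told apart.

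The genes of central carbon metabolism differed little between the genotypes. Of the 36 measured genes, 1 fell and none rose at an adjusted p under 0.1 (limma, two-sided, Benjamini-Hochberg over all probe sets), and none was past the 1.5-fold minimum of the study's methods. Over all 34472 probe sets, 0.757% fell and 1.25% rose at this adjusted p (2.01% in either direction), and 0.261% fell and 0.424% rose by over 1.5-fold as well. The balance of direction depended on the scaling, with 431 probe sets that rose and 261 that fell as deposited but 349 and 418 after each array was centred on its median. At an unadjusted p under 0.05, 3 of the 36 genes were lower and 2 higher, against 6.95% and 7.73% of all probe sets. The median difference over the 36 genes was −0.02, against 0 over all probe sets and also −0.02 over genes with a signal above the median. The differences lay between −0.31 and 0.24 on the log2 scale, so that the largest was 1.24-fold. Each of the 36 confidence intervals (95%, limma, n = 3 arrays per genotype, not adjusted for the number of genes) lay inside a 1.5-fold change in either direction, and the bound farthest from 0 was at 1.42-fold. Most intervals on these arrays did so, those of 12120 of 12499 genes with a signal above the median and of 32249 of the 34472 probe sets. Of the 36 genes, 20 had a lower and 15 a higher mean in HDAC10-/- Treg, and Mdh1 had the same mean in both. In 9 genes every HDAC10-/- array lay below every WT array (25.0%), and in 4 every HDAC10-/- array lay above (11.1%). The matching shares are 10.9% and 9.89% of all probe sets, of which 49.1% had a lower mean in HDAC10-/- Treg. All 36 members had a signal above the median. Over all genes with such a probe set, 17.7% were lower and 10.8% higher without overlap, 10.1% lower and 7.16% higher at an unadjusted p under 0.05, 57.3% had a lower mean in HDAC10-/- Treg and 0.872% fell at an adjusted p under 0.1.

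**Figure D1:**
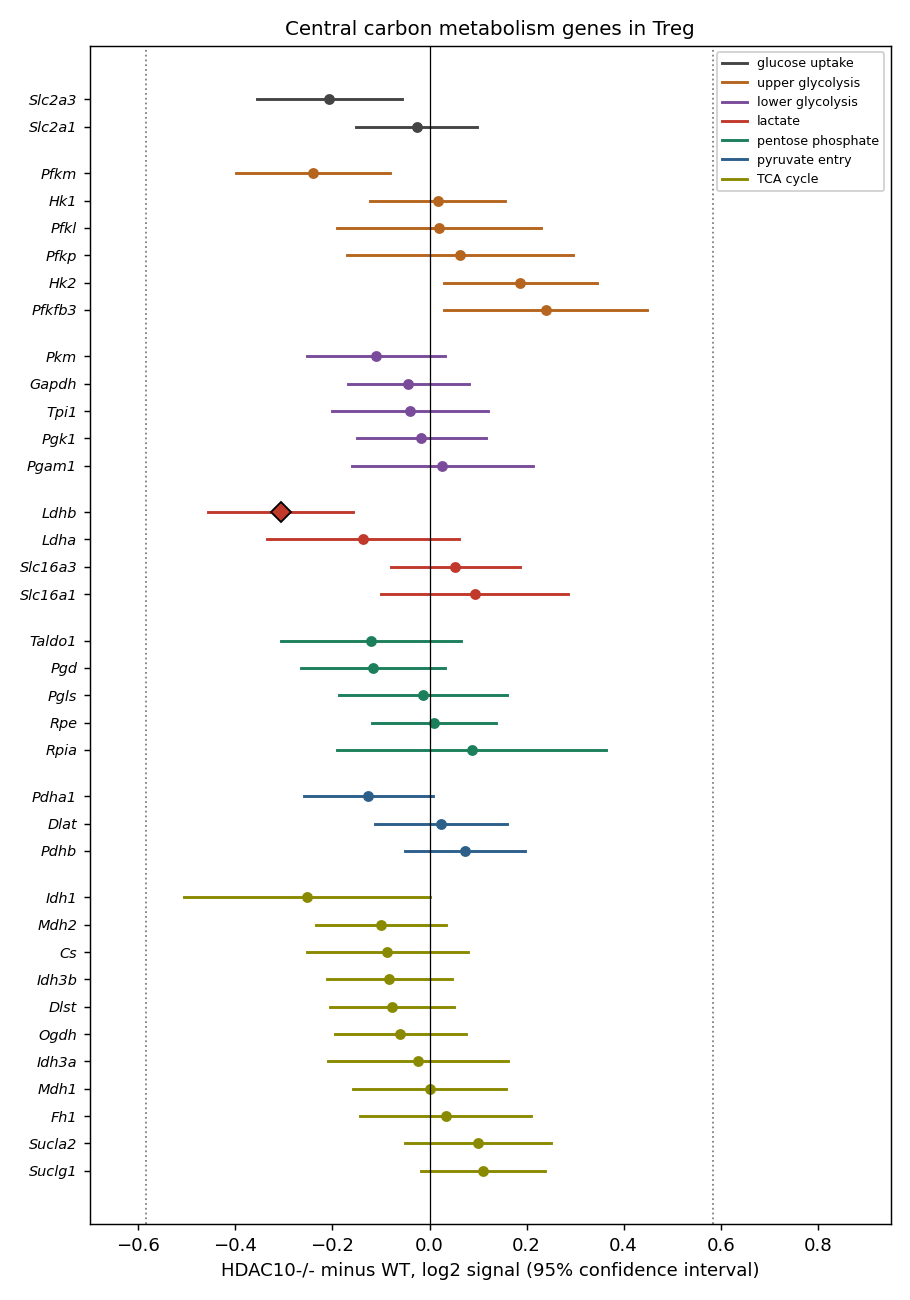
Difference between HDAC10-/- and WT Treg for the 36 measured genes, on the log2 scale, in order of their place in metabolism. Points are differences of the means of 3 arrays per genotype, bars are 95% confidence intervals from limma, dotted lines mark 1.5-fold, and the diamond is Ldhb, the 1 gene with an adjusted p under 0.1; no interval reaches a dotted line.

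Of the glucose transporters, Slc2a3, which encodes GLUT3, was the lower one in HDAC10-/- Treg, although it did not pass the test. Its log2 signal was 9.63, 9.78 and 9.76 in HDAC10-/- Treg and 9.96, 9.91 and 9.92 in WT Treg. Each HDAC10-/- array was below each WT array (difference −0.21, standard error 0.064, adjusted p = 0.208 from limma). Slc2a1, which encodes GLUT1, the transporter that activated T cells depend on, was nearly the same in every array. It had 10.48, 10.51 and 10.48 in HDAC10-/- Treg and 10.51, 10.50 and 10.54 in WT Treg (difference −0.03, 95% confidence interval −0.15 to 0.10).

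In upper glycolysis, 3 of the 6 measured genes had groups that did not overlap, 2 higher and 1 lower, and none passed the test. Of all probe sets 9.89% were higher and 10.9% lower without overlap. Hexokinase traps glucose in the cell as glucose 6-phosphate. Hk1, the broadly expressed hexokinase, had 9.35, 9.44 and 9.32 in HDAC10-/- Treg and 9.34, 9.34 and 9.38 in WT Treg (difference 0.02). Hk2, the hexokinase known to be induced by growth signals and low oxygen, had 6.86, 7.04 and 6.88 in HDAC10-/- Treg and 6.75, 6.73 and 6.74 in WT Treg. The 3 WT arrays lay within 0.02 of each other and all HDAC10-/- arrays were above them (difference 0.19, 95% confidence interval 0.03 to 0.34, adjusted p = 0.269 from limma).

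Phosphofructokinase commits sugar to glycolysis and works as a tetramer of liver, muscle and platelet type subunits. Pfkl, the liver type, had 9.03, 9.33 and 9.31 in HDAC10-/- Treg and 9.22, 9.21 and 9.18 in WT Treg. Pfkp, the platelet type, had 10.07, 10.40 and 10.41 in HDAC10-/- Treg and 10.27, 10.21 and 10.21 in WT Treg. In both genes HDAC10-/- replicate 1 was the lowest of the 6 arrays and the other 2 HDAC10-/- arrays the highest, so that the groups overlapped (differences 0.02 and 0.06). Pfkm, the muscle type, had 8.01, 8.18 and 8.12 in HDAC10-/- Treg and 8.35, 8.39 and 8.29 in WT Treg. Here all HDAC10-/- arrays were below all WT arrays (difference −0.24, standard error 0.067, adjusted p = 0.178 from limma). Pfkm and Hdac10 both lie on chromosome 15, and whether this has a part in the difference of Pfkm was not tested. Pfkfb3, whose product makes the activator of phosphofructokinase, had the largest positive difference of the list. Its signal was 8.24, 8.38 and 8.55 in HDAC10-/- Treg and 8.16, 8.21 and 8.08 in WT Treg, with no overlap but with a gap of 0.03 between the nearest arrays (difference 0.24, standard error 0.089, adjusted p = 0.280 from limma).

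**Figure D2:**
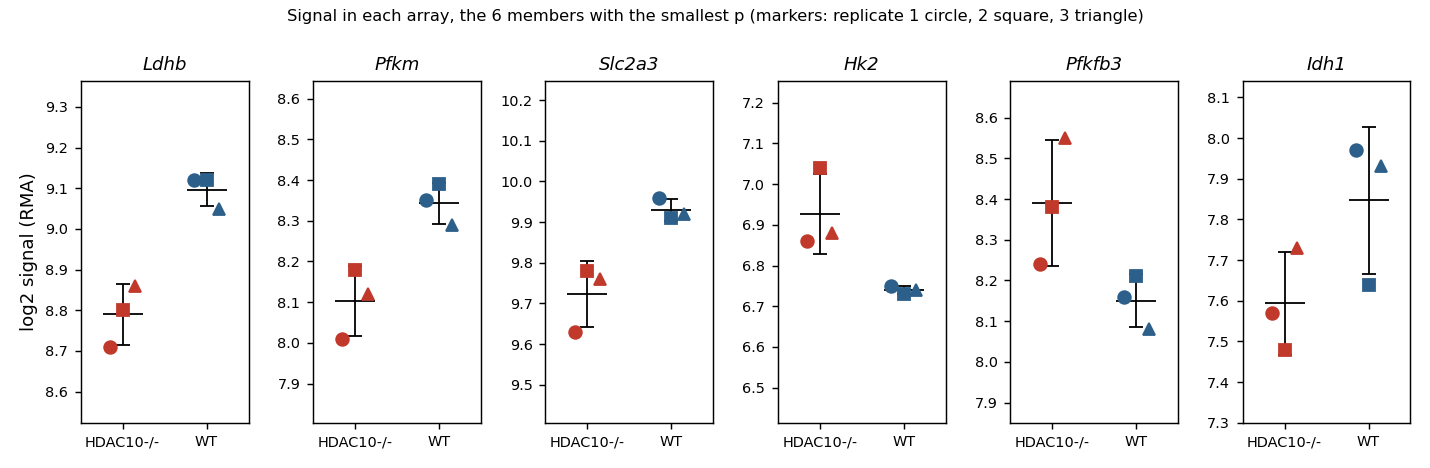
Log2 signal in each of the 3 HDAC10-/- arrays and the 3 WT arrays for the 6 genes with the smallest p, with means and SD as bars; each panel has its own axis of the same length. In Ldhb, Pfkm and Slc2a3 the HDAC10-/- arrays lie below the WT arrays, in Hk2 and Pfkfb3 above them, and in Idh1 the groups overlap.

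Lower glycolysis, from the cleavage of the sugar to pyruvate, had no gene that passed the test among the 5 measured. Differences lay between −0.11 and 0.03. Gapdh, often taken as a reference gene, had 12.66, 12.62 and 12.63 in HDAC10-/- Treg and 12.70, 12.66 and 12.68 in WT Treg (difference −0.04, 95% confidence interval −0.17 to 0.08). Pgk1, the phosphoglycerate kinase, averaged 11.42 ± 0.036 in HDAC10-/- and 11.44 ± 0.035 in WT Treg (SD, n = 3 each), and the triosephosphate isomerase gene Tpi1 10.62 ± 0.038 in HDAC10-/- and 10.66 ± 0.097 in WT Treg. Pkm, which encodes the pyruvate kinase of most tissues, had 11.69, 11.78 and 11.80 in HDAC10-/- Treg and 11.86, 11.91 and 11.83 in WT Treg. Its groups did not overlap, but the difference of −0.11 did not pass the test (adjusted p = 0.457 from limma). The single signal per gene does not separate the M1 and M2 splice forms of Pkm. Some of these genes are read by more than 1 probe set, and Gapdh has many processed pseudogenes in the mouse. The other Gapdh probe sets had differences of −0.03 and −0.09. The phosphoglycerate mutase gene Pgam1 had 0.03 with its brighter probe set (9.93 ± 0.11 in HDAC10-/- and 9.91 ± 0.087 in WT Treg) and −0.20 with the other (7.83 ± 0.060 in HDAC10-/- and 8.03 ± 0.20 in WT Treg, SD, n = 3 each), neither past the test. The other probe sets of Slc2a1 and Pgls had −0.05 and −0.07.

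Lactate dehydrogenase held the 1 gene of the list that passed. The enzyme is a tetramer of A and B subunits; the A form is known for turning pyruvate into lactate and the B form for the reverse. Ldhb had a log2 signal of 8.71, 8.80 and 8.86 in HDAC10-/- Treg and 9.12, 9.12 and 9.05 in WT Treg. All HDAC10-/- arrays were below all WT arrays, and the gap of 0.19 between the nearest ones was larger than the range within either genotype. This is a 1.24-fold lower level (difference −0.31, standard error 0.064, 95% confidence interval −0.46 to −0.16, adjusted p = 0.0937 from limma). The call sits just under the threshold of 0.1. It was lost whenever 1 array was left out (adjusted p from 0.109 without HDAC10-/- replicate 1 to 0.267 without WT replicate 1) with quantile normalization (0.112) and with the methods' t-test in place of limma (0.165), while the difference stayed between −0.34 and −0.27. Ldha also had lower values in every HDAC10-/- array, 9.23, 9.46 and 9.52 against 9.53, 9.56 and 9.53 in WT Treg, but HDAC10-/- replicate 3 was within 0.01 of the lowest WT array (difference −0.14, 95% confidence interval −0.33 to 0.06, adjusted p = 0.509 from limma).

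The proximal promoters of both lactate dehydrogenase genes and of Hk2 are shown because Ldhb is the 1 gene that passed and Ldha and Hk2 are textbook targets of hypoxia-inducible factor and Myc. They are the 250 bases before the start of each gene in RefSeq (build GRCm38.p6), 5′ to 3′ on the strand of the gene. Capitals mark ACGTG or GCGTG on either strand, the core letters that hypoxia-inducible factor binds, and the E-box CACGTG of Myc, which holds ACGTG on both strands. On the other strand ACGTG reads CACGT.
Ldhb (chr6:142507958-142508207, minus strand): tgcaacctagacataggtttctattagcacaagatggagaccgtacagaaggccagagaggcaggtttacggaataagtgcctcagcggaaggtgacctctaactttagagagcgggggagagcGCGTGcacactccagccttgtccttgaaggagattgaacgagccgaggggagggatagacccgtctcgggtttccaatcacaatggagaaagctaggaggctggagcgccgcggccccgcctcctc
Ldha (chr7:46845554-46845803, plus strand): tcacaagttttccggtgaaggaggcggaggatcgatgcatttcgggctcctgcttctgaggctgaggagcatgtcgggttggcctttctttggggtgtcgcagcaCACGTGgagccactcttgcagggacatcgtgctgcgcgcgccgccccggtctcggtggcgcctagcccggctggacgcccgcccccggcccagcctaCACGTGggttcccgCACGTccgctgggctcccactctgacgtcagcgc
Hk2 (chr6:82774455-82774704, minus strand): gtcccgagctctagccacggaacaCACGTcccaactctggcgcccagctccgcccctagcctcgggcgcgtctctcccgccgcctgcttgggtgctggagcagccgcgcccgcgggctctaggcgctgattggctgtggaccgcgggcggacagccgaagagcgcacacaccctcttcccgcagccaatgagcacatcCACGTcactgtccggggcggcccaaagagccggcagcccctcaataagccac
Ldhb has GCGTG at 1 place. Ldha has 2 copies of CACGTG and a further CACGT, and Hk2 has CACGT at 2 places and no CACGTG. Such letters are common in these genes. Of the 36 measured members 34 had a promoter in RefSeq's table, all but Slc2a3 and Idh3a. Of these, 24 held ACGTG or GCGTG (70.6%), against 43.9% of 17492 protein-coding genes, and 3 held CACGTG (8.82%), against 6.65%. The base composition of the promoters was not matched, and a match of letters is no evidence of binding.

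The lactate carriers did not differ beyond the spread of the arrays. Slc16a1, which encodes MCT1, had 9.60, 9.79 and 9.78 in HDAC10-/- Treg and 9.72, 9.52 and 9.65 in WT Treg (difference 0.09, 95% confidence interval −0.10 to 0.29). Slc16a3, which encodes MCT4, the exporter of highly glycolytic cells, had 7.63, 7.57 and 7.57 in HDAC10-/- Treg and 7.52, 7.51 and 7.58 in WT Treg (difference 0.05, 95% confidence interval −0.08 to 0.19). In both genes the groups overlapped.

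None of the 5 measured pentose phosphate genes passed the test, and in each the arrays of the genotypes overlapped. Pgd, which encodes 6-phosphogluconate dehydrogenase, an NADPH-forming step, had 10.76, 10.66 and 10.66 in HDAC10-/- Treg and 10.85, 10.74 and 10.84 in WT Treg (difference −0.12, adjusted p = 0.451 from limma). The transaldolase gene Taldo1 averaged 8.46 ± 0.14 in HDAC10-/- and 8.58 ± 0.020 in WT Treg, and the lactonase gene Pgls 8.34 ± 0.090 in HDAC10-/- and 8.36 ± 0.081 in WT Treg (SD, n = 3 each). The epimerase gene Rpe averaged 9.39 ± 0.021 in HDAC10-/- and 9.38 ± 0.031 in WT Treg. Rpia, the ribose 5-phosphate isomerase gene, had the widest interval of the list. Its signal was 9.50 in HDAC10-/- replicate 1 and 9.10 and 9.07 in the other HDAC10-/- arrays, against 9.16, 9.07 and 9.18 in WT Treg, so that the other 2 HDAC10-/- arrays lay within the WT range (difference 0.09, 95% confidence interval −0.19 to 0.36).

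Pyruvate dehydrogenase joins glycolysis to the TCA cycle. The 2 subunits of its first enzyme had small differences of opposite sign. Pdha1, the alpha subunit, had 9.20, 9.13 and 9.12 in HDAC10-/- Treg and 9.31, 9.26 and 9.26 in WT Treg (difference −0.13, adjusted p = 0.362 from limma). Pdhb, the beta subunit, had 9.79, 9.76 and 9.75 in HDAC10-/- Treg and 9.69, 9.69 and 9.70 in WT Treg (difference 0.07, adjusted p = 0.580 from limma). Neither pair of groups overlapped, and neither gene passed the test. Of all probe sets 10.9% were lower and 9.89% higher without overlap, and of genes with a signal above the median 17.7% and 10.8%. Dlat, the subunit that carries the acetyl group, averaged 8.32 ± 0.050 in HDAC10-/- and 8.29 ± 0.031 in WT Treg (SD, n = 3 each).

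Among the 11 measured genes of the TCA cycle and its cytosolic partners, 7 had a lower mean in HDAC10-/- Treg, 3 a higher one, and none passed the test. Idh1, the cytosolic isocitrate dehydrogenase that forms NADPH, had the largest difference, but with the widest spread in WT Treg of the whole list. It had 7.57, 7.48 and 7.73 in HDAC10-/- Treg and 7.97, 7.64 and 7.93 in WT Treg, with WT replicate 2 inside the HDAC10-/- range (difference −0.25, 95% confidence interval −0.51 to 0.00, adjusted p = 0.340 from limma). The mitochondrial NAD-dependent enzyme was flatter. Idh3a had 9.28, 9.49 and 9.40 in HDAC10-/- Treg and 9.48, 9.31 and 9.45 in WT Treg (difference −0.02). Idh3b had 11.14, 11.21 and 11.20 in HDAC10-/- Treg and 11.27, 11.25 and 11.28 in WT Treg, without overlap (difference −0.08, adjusted p = 0.541 from limma).

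Of the 3 measured subunits of succinyl-CoA ligase, 2 had a higher and 1 a lower mean in HDAC10-/- Treg. Suclg1, the common alpha subunit, had 7.69, 7.68 and 7.73 in HDAC10-/- Treg and 7.57, 7.58 and 7.62 in WT Treg, without overlap (difference 0.11, adjusted p = 0.409 from limma). Sucla2, the ADP-forming beta subunit, had 8.53, 8.42 and 8.50 in HDAC10-/- Treg and 8.46, 8.36 and 8.33 in WT Treg, with overlap (difference 0.10, adjusted p = 0.531 from limma). Suclg2, the GDP-forming beta subunit and not one of the listed genes, had 9.45, 9.63 and 9.58 in HDAC10-/- Treg and 9.64, 9.59 and 9.66 in WT Treg, also with overlap (difference −0.08, adjusted p = 0.657 from limma). Malate dehydrogenase, which moves reducing power between cytosol and mitochondria, had a cytosolic and a mitochondrial form on the array. Mdh1, the cytosolic form, had 9.45, 9.61 and 9.59 in HDAC10-/- Treg and 9.59, 9.56 and 9.50 in WT Treg, with a mean of 9.55 in both. Mdh2, the mitochondrial form, had 11.73, 11.78 and 11.75 in HDAC10-/- Treg and 11.91, 11.81 and 11.84 in WT Treg, without overlap (difference −0.10, adjusted p = 0.478 from limma). Citrate synthase, the entry step, averaged 11.50 ± 0.10 in HDAC10-/- and 11.58 ± 0.050 in WT Treg for Cs. The oxoglutarate dehydrogenase subunits averaged 10.82 ± 0.042 in HDAC10-/- and 10.88 ± 0.040 in WT Treg for Ogdh, and 9.83 ± 0.035 in HDAC10-/- and 9.90 ± 0.015 in WT Treg for Dlst, whose groups did not overlap. Fumarase, from Fh1, averaged 9.57 ± 0.11 in HDAC10-/- and 9.54 ± 0.057 in WT Treg (SD, n = 3 each).

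Isoform use in WT Treg can be read from these arrays only as signals. Probe sets differ in the oligonucleotides they hold, so that a signal of 9.35 for Hk1 and 6.74 for Hk2 in WT Treg does not say how much more of one transcript there is. All 36 members lay above the median of their array (6.18 to 6.24) in all 6 arrays, among them both glucose transporters, both hexokinases, all 3 phosphofructokinase subunits, both lactate dehydrogenase subunits and both lactate carriers. Of 78 measured genes of the same pathways outside the list, 14 lay below the median of the array in all 6, among them isoforms known from other tissues, such as the liver and muscle glucose transporter genes Slc2a2 and Slc2a4, the testis genes Pgk2 and Pdha2, the lactate carrier gene Slc16a7 and the hexokinase-like Hkdc1. Of all 22180 genes with a probe set of 1 symbol, 11793 lay above the median in all 6 arrays and 8918 below it in all 6. No detection calls are used here, so that a signal under the median is not shown to be absence.

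Within 1 array, the difference between the signals of 2 isoforms or subunits serves to ask whether their balance shifted with the genotype. The pairs of pyruvate dehydrogenase, isocitrate dehydrogenase and succinyl-CoA ligase are different subunits of 1 enzyme and not isoforms. Of 11 pairs, 6 had HDAC10-/- and WT arrays that did not overlap. Each of these 6 holds a gene whose own groups did not overlap, and Pfkm is in 2 of them. No share was computed over other pairs of genes, so that it is not known whether 6 of 11 is unusual. For single genes, 10.9% of all probe sets were lower and 9.89% higher without overlap. With 3 arrays per genotype the smallest two-sided p of an exact permutation test is 0.1, which these 6 pairs had. Adjusted over the 11 pairs by Benjamini-Hochberg it is 0.183. No pair could have had an adjusted p under 0.1, so that this test cannot decide whether a balance shifted. The balance of Hk2 to Hk1 was −2.49, −2.40 and −2.44 in HDAC10-/- Treg and −2.59, −2.61 and −2.64 in WT Treg, a difference of 0.17 toward Hk2. The balance of Ldhb to Ldha was −0.52, −0.66 and −0.66 in HDAC10-/- Treg and −0.41, −0.44 and −0.48 in WT Treg, a difference of −0.17 away from Ldhb. That of Slc2a3 to Slc2a1 was −0.85, −0.73 and −0.72 in HDAC10-/- Treg and −0.55, −0.59 and −0.62 in WT Treg (difference −0.18).

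The phosphofructokinase subunits had the largest difference of means of the 11 pairs, and their 3 pairs share genes. Pfkm relative to Pfkl was −1.02, −1.15 and −1.19 in HDAC10-/- Treg and −0.87, −0.82 and −0.89 in WT Treg (difference −0.26). Pfkp relative to Pfkm was 2.06, 2.22 and 2.29 in HDAC10-/- Treg and 1.92, 1.82 and 1.92 in WT Treg (difference 0.30). Pfkp relative to Pfkl was 1.04, 1.07 and 1.10 in HDAC10-/- Treg and 1.05, 1.0 and 1.03 in WT Treg, with overlap (difference 0.04). The balance of the platelet and liver types lay between 1.0 and 1.10 in all 6 arrays, also in HDAC10-/- replicate 1, where both were low. The beta relative to the alpha subunit of pyruvate dehydrogenase was 0.59, 0.63 and 0.63 in HDAC10-/- Treg and 0.38, 0.43 and 0.44 in WT Treg (difference 0.20). The other 4 pairs, of lactate carriers, isocitrate dehydrogenase, succinyl-CoA ligase and malate dehydrogenase subunits or forms, overlapped, with differences from −0.10 to −0.01.

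**Figure D3:**
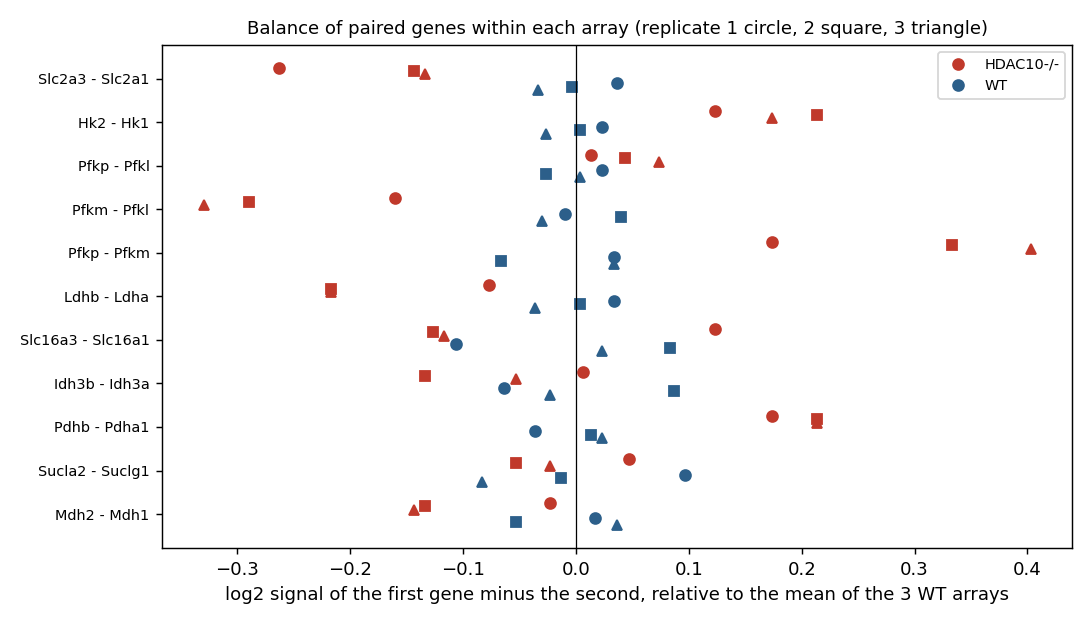
Balance of 11 gene pairs within each array, as the log2 signal of the first gene minus that of the second, set against the mean of the 3 WT arrays; red points are HDAC10-/- and blue points WT arrays. In 6 pairs the colours do not overlap, with no share over other pairs of genes to set this against. The difference of means is largest for Pfkp and Pfkm at 0.30.

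The spread of these genes was not even among the arrays. The median SD over the 36 genes was 0.069 between HDAC10-/- arrays and 0.039 between WT arrays. Genes with a signal above the median had 0.078 between HDAC10-/- and 0.052 between WT arrays, and all probe sets 0.1 and 0.080, so that the wider spread was not particular to this list. HDAC10-/- replicate 1 was the array farthest from the median of its genotype in 23 of 36 genes, 63.9%, against 52.5% of all genes with a probe set above the median signal. The largest deviations of this array from the other 2 HDAC10-/- arrays were upward in Rpia and downward in Pfkp, Pfkl and Ldha. This array also had the highest mean signal of the macrophage and monocyte, neutrophil and B cell markers named above, at 7.23, 6.48 and 8.48. The same held for the dendritic cell markers, the CD8 T and NK cell markers and the proliferation genes, at 7.15, 8.32 and 10.08. Over the Treg and T cell markers its mean was 11.97, against 11.94 and 11.95 in HDAC10-/- replicates 2 and 3. Whether other cell types have a part in the deviations of this array was not tested. Without this array, the difference of Ldha was −0.05 in place of −0.14, that of Pfkp 0.18 in place of 0.06 and that of Pfkl 0.12 in place of 0.02. Those of Pfkm, Slc2a3 and Ldhb were −0.19, −0.16 and −0.27, and none of the 36 genes passed (limma).

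**Figure D4:**
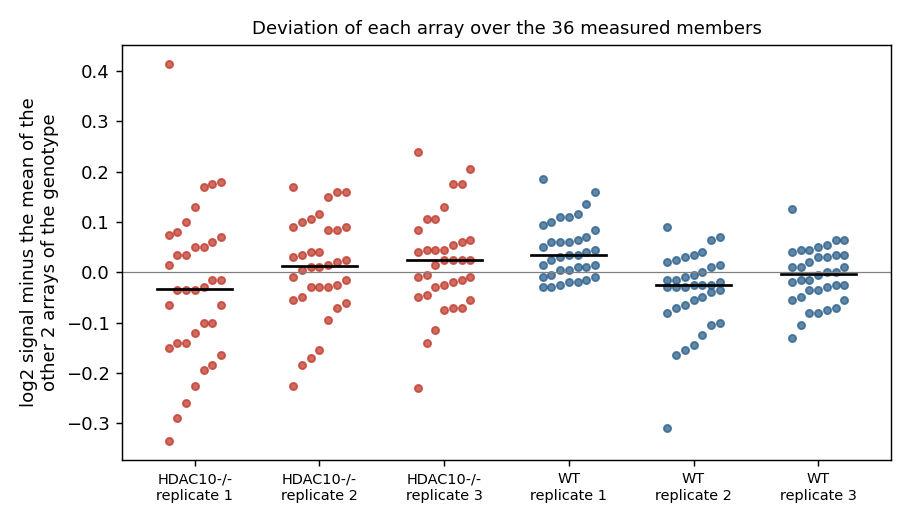
Deviation of each array from the mean of the other 2 arrays of its genotype, on the log2 scale, with 1 point for each of the 36 measured genes and a line at the median. HDAC10-/- replicate 1 has the widest spread, with Rpia as its highest point.

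Beyond the listed genes, 86 further genes of the same pathways and their regulators were read, of which 78 were measured. In limma 0 of them were called at an adjusted p under 0.1, while 3 higher and 5 lower ones had an unadjusted p under 0.05, against 7.73% and 6.95% of all probe sets. Of the 78, 52 had a lower mean in HDAC10-/- Treg (66.7%), against 49.1% of all probe sets and 57.3% of genes with a signal above the median. The median difference was −0.05, against 0 over all probe sets and −0.02 over genes with a signal above the median. Pgm2, a phosphoglucomutase, had 9.19, 9.11 and 9.05 in HDAC10-/- Treg and 9.54, 9.35 and 9.42 in WT Treg (difference −0.32, standard error 0.073, adjusted p = 0.117 from limma). Bpgm, the bisphosphoglycerate mutase, had 7.26, 7.42 and 7.42 in HDAC10-/- Treg and 7.58, 7.66 and 7.62 in WT Treg (difference −0.25, adjusted p = 0.162). G6pc3, a glucose 6-phosphatase, had 9.13, 9.19 and 9.21 in HDAC10-/- Treg and 9.47, 9.32 and 9.44 in WT Treg (difference −0.23, adjusted p = 0.175). In all 3, which were chosen for their small p, the HDAC10-/- arrays lay below the WT arrays. Of the 78 genes, 11 were lower (14.1%) and 6 higher (7.69%) without overlap, against 10.9% and 9.89% of all probe sets. Among genes with a signal above the median the shares were 17.7% and 10.8%.

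On the other side, Mlxip, which encodes the glucose-sensing transcription factor MondoA, had 11.02, 11.01 and 11.04 in HDAC10-/- Treg and 10.63, 10.90 and 10.70 in WT Treg (difference 0.28, adjusted p = 0.182 from limma). Ogdhl, a relative of Ogdh known from brain, had 5.67, 5.61 and 5.59 in HDAC10-/- Treg and 5.38, 5.32 and 5.50 in WT Treg, below the median of every array (difference 0.22, adjusted p = 0.201 from limma). The best-known regulators of glycolytic genes differed less. Hif1a, the oxygen-sensing factor, had 11.19, 11.15 and 11.16 in HDAC10-/- Treg and 11.06, 11.10 and 11.11 in WT Treg (difference 0.08, adjusted p = 0.571 from limma), and Myc had 11.27, 11.22 and 11.23 in HDAC10-/- Treg and 11.15, 11.15 and 11.12 in WT Treg (difference 0.10, adjusted p = 0.448 from limma). In both, the HDAC10-/- arrays lay above the WT arrays by a narrow gap. Of the 12 measured regulators, 3 were higher without overlap, Mlxip, Hif1a and Myc, and in the other 9 the groups overlapped. Without overlap, 9.89% of all probe sets and 10.8% of genes with a signal above the median were higher.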

How the data were processed

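The members and lists of genes were chosen with earlier results of these data known. RNA of 3 HDAC10-/- and 3 WT Treg samples, independent per the labels, was read on Mouse Gene 2.0 ST arrays. The log2 signals deposited by the authors, with 2 decimals, had been normalized by robust multiarray average (Transcriptome Analysis Console 4.0 in the submitters' processing notes) and were used as they stand. Rounding and the summary over probes limit small differences, and normalization assumes that most genes are alike between arrays. Arrays have no read depth, and their number limits the precision.

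HDAC10-/- minus WT was fitted over all 34472 probe sets in R 4.3.3 with limma 3.58.1, without trend or robust option (prior degrees of freedom 3.23), and p-values were adjusted by Benjamini-Hochberg. "Rose" and "fell" are used at an adjusted p under 0.1, whatever the fold. The fit was tested on simulated data with added changes of over 1.5-fold. These were larger than any difference of the members, so that the simulation does not show how well such small differences are found. Each array's value was given for genes in the isoform pairs, the 10 members with the smallest p, members without overlap at an unadjusted p under 0.05, and the 5 other pathway genes with the smallest p. Gapdh, Rpia, Suclg2, Hif1a and Myc were added after their values were seen, and other members are given as means. Alternatives were the methods' t-test, a variance trend on signal together with limma's robust option, weights per array, quantile normalization, median centring, brighter or singly annotated probe sets, the mean of a gene's probe sets, stricter thresholds, replicate numbers as a block, and the omission of 1 array at a time. Of the other pathway and marker lists, 8 and 6 genes were not measured. None of the erythroid markers was measured. Promoters are from RefSeq.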

Additional observations from a re-analysis of the deposited data

How the results depend on the processing

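The difference of Hdac10 and its call held under all 14 alternatives run for it. Ldhb kept its sign under all 15 alternatives run for it and its call under 6 of them, and no member changed sign while called. Of the member genes, 1 was called, against 0 with the 1.5-fold minimum, with an adjusted p under 0.05, with the methods' t-test and with quantile normalization, and 3 (Slc2a3, Pfkm and Ldhb) with the intensity trend and robust option or with brighter probe sets only. Without 1 array, 0 were called in each of the 6 cases. Of the other pathway genes, 0 were called, against 4 with the trend and robust option, 1 with array weights, 1 with median centring, 4 with brighter probe sets only, 1 with singly annotated probe sets, and 0 to 1 without 1 array. Over all probe sets, 692 were called, against 236 with the 1.5-fold minimum, 305 at an adjusted p under 0.05, 181 with the methods' t-test, 1756 with the trend and robust option, 1332 with array weights, 2000 with brighter probe sets only, and 176 (without WT replicate 1) to 1085 (without HDAC10-/- replicate 1) without 1 array. Of those called, 62.3% were higher in HDAC10-/- Treg, against 45.5% with median centring (767 called), 46.1% with brighter probe sets, 45.9% with the methods' t-test and 49.5% with the trend and robust option. The cause was not tested. The median difference over the members was −0.02, against 0.012 with quantile normalization, −0.053 with median centring, which moved the median of all probe sets to −0.03, −0.04 with the mean of a gene's probe sets, and −0.035 to 0.01 without 1 array. The balance of Hk2 to Hk1 shifted by 0.11 with quantile normalization, against 0.17. With the replicate number as a block, 205 probe sets and 0 members were called and Ldhb had an adjusted p of 0.228, and deviations of same-numbered arrays correlated at −0.0032, 0.00063 and −0.024, so that the numbers are not taken to pair the samples. With 3 arrays per genotype, the 95% interval of a member spanned ±0.15 in the median, which limits what could be detected.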
